A study of Mus musculus with 14 samples.

Results

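The genes described here are the cyclins, cyclin-dependent kinases (Cdks), replication licensing genes and centromere genes of mouse embryonic stem cells. They were taken by name from the protein-coding genes of the GENCODE annotation of mm10. A gene was included when its symbol was Ccn with a letter from a to k and a digit, Cdk, Mcm or Cdc with a number, Orc1 to Orc6, or Cenp with 1 further letter. This gave 88 of 21938 genes. A rule on names also takes in genes with other functions, such as Cenpj, which encodes a centriole protein.

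The study asked how chromatin differs when Smarcb1, a core subunit of the BAF chromatin remodelling complex, is knocked down in the embryonic stem cell line 81K1. This line derives from OG2 cells and carries a doxycycline-inducible shRNA against Smarcb1 at the Rosa26 locus. Control cells of the same line were left untreated, and knockdown (kd) cells received doxycycline at 1 µg/ml every day for 72 h. Both were grown on gelatine with LIF. ChIP-seq was done for Smarca4 (an ATPase of the BAF complex), Ezh2 (the methyltransferase of Polycomb repressive complex 2) and the histone marks H3K27me3, H3K27ac and H3K4me3, with 1 library per antibody and condition. Because the controls received no doxycycline, an effect of the drug and an effect of the shRNA cannot be told apart.

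The lists held 79014 Smarca4 peaks in control and 72339 after kd, 6708 and 5364 Ezh2 peaks, 22909 and 18320 H3K27me3 islands, 39091 and 51100 H3K27ac islands, and 26130 and 33506 H3K4me3 islands. They give no read counts, and the methods state an approximate depth for the Ezh2, H3K27ac and H3K4me3 libraries but not the reads behind each list, so the depth behind a call is unknown and a region missing from a list is not a measured loss. With 1 library per group no difference between conditions could be tested, and the intervals given are 95% Wilson intervals that cover counting error over genes only. Smarcb1 itself had Smarca4, H3K27ac and H3K4me3 at its transcription start site (TSS) in both conditions, which checks nothing about the knockdown, since a shRNA acts on the mRNA. Of 6 embryonic stem cell markers 5 had H3K4me3 and H3K27ac within 1 kb of the TSS in both conditions, and none of the fibroblast, trophoblast, endoderm or neural markers examined had H3K27ac there. Among the latter, Col1a1, Gata4 and Tubb3 had H3K27ac elsewhere in the gene region after kd alone. Col1a1, Thy1 and Foxa2 had H3K4me3 within 1 kb of the TSS after kd alone.

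Cyclins switch on their partner Cdks, and these pairs drive the cell into DNA synthesis and on into mitosis. The origin recognition complex and Cdc6 load the Mcm2-7 helicase on DNA before replication, and the Cenp proteins build the centromere and kinetochore to which spindle fibres attach. H3K4me3 marks the starts of active and poised genes, H3K27ac marks active starts and enhancers, and H3K27me3 is laid down by Polycomb at genes held silent, often genes of development.

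The promoters are shown first, since the members differed in which of these marks lay at their starts. The RefSeq promoter table (build GRCm38.p6) held an entry for 77 of the 88 genes and for 16521 protein-coding genes in all. The 250 bases before each RefSeq start were searched on both strands for E2F motifs (TTTCGCGC and TTTGGCGC), for the CHR element (TTTGAA) known from mitotic genes, and for the CCAAT box (CCAAT). E2F letters were present in 6 of the 77 promoters (7.79%, interval 3.62 to 16%) and in 0.872% of all promoters. CCAAT letters were present in 41 (53.2%, interval 42.2 to 64%) and in 36.1% of all promoters. CHR letters were present in 10 (13%, interval 7.21 to 22.3%) and in 14.2% of all promoters, so only this share lay near the background. A match describes letters and not a bound site.

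The first 4 promoters belong to members with H3K27me3 at the start. They were chosen after their values were seen and have the lowest ratios of observed to expected CpG of the 10 such members with an entry, the other 6 of which lie between 0.714 and 1.25. Cdc14a and Cdc25b encode phosphatases and had it in control alone. Cdk18, a kinase of the PCTAIRE family, had it in both conditions, as did Cdk15, which had no H3K4me3 at its start. Each sequence is written 5′ to 3′ as the stretch before the start that lies outside annotated exons, with motif matches in capitals.
Cdc14a (chr3:116424073-116424322, - strand): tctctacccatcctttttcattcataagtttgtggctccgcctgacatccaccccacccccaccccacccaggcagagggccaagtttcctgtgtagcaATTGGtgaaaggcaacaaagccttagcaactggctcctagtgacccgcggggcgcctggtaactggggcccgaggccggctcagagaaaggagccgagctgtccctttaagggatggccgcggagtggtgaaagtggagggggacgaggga
Cdc25b (chr2:131186698-131186947, + strand): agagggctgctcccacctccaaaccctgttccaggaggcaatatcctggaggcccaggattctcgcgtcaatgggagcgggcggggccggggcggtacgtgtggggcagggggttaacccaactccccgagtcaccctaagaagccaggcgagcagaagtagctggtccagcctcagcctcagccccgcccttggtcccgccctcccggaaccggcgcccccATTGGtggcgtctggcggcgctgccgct
Cdk18 (chr1:132139686-132139935, - strand): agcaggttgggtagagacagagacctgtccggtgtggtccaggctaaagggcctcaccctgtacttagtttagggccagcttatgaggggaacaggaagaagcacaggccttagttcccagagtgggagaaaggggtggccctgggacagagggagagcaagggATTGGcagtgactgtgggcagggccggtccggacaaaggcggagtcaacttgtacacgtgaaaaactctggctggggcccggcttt
Cdk15 (chr1:59256656-59256905, + strand): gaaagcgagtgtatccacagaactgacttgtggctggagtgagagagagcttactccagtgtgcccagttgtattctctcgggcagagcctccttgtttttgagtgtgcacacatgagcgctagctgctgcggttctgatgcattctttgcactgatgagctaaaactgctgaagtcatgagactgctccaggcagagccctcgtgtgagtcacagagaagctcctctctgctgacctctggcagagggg

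The next 6 promoters were chosen for their E2F or CHR matches, again in capitals. All 6 had H3K4me3 and none had H3K27me3 at the start in either condition. Cdk1, the main mitotic kinase, and the phosphatase gene Cdc25a had H3K27ac there after kd alone. Ccnb2 (cyclin B2), Cdc20 (the activator of the anaphase promoting complex) and the helicase genes Mcm5 and Mcm6 had it in both conditions. In Mcm5 and Mcm6 a pair of E2F matches on opposite strands overlaps and forms 1 run of capitals.
Cdk1 (chr10:69352939-69353162, - strand): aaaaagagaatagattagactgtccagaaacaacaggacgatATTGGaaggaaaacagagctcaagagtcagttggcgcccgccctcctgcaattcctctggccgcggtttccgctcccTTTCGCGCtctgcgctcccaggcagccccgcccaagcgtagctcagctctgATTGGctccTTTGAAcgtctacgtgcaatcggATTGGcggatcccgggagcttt
Cdc25a (chr9:109875329-109875578, + strand): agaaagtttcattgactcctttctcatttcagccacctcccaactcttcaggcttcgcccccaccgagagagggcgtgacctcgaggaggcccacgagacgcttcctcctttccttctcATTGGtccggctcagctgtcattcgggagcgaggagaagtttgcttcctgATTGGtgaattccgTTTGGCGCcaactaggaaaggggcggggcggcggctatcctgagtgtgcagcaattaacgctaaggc
Ccnb2 (chr9:70421555-70421804, - strand): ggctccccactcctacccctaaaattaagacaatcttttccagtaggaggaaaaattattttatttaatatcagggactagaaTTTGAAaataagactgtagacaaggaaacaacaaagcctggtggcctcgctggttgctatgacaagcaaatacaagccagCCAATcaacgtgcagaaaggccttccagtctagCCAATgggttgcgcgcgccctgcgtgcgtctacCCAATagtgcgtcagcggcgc
Cdc20 (chr4:118437353-118437593, - strand): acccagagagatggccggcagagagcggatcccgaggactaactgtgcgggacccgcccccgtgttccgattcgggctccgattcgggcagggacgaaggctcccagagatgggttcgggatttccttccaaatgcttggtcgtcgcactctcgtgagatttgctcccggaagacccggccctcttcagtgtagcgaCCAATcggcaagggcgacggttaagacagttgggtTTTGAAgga
Mcm5 (chr8:75109259-75109508, + strand): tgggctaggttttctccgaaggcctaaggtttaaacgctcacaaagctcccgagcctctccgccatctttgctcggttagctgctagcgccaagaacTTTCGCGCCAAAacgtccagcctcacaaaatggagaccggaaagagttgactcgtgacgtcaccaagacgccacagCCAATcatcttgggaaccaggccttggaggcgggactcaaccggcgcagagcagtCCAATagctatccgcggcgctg
Mcm6 (chr1:128359706-128359955, - strand): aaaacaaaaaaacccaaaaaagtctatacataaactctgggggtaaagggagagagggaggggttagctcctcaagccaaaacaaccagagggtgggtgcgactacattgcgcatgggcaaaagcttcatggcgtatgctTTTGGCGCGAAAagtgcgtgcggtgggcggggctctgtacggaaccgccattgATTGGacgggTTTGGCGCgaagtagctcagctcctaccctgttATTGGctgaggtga

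The printed stretches of Cdc14a, Cdc25b and Cdk18 each held 1 CCAAT box, and that of Cdk15 held no match. H3K27me3 was called at the start of 0 of 6 members with E2F letters and of 0 of 10 with CHR letters in either condition. In control it was called at 9 of the 71 members without E2F letters and at 9 of the 67 without CHR letters. The groups with a motif are too small to set these shares apart. It was called at 5 of 41 members with a CCAAT box and at 4 of 36 without one. H3K27ac was called at 2 of the 6 members with E2F letters in control and at 5 after kd, and at 36 and 52 of the 71 without them. The ratio of observed to expected CpG over 300 bases at the start was 0.234 for Cdk18, 0.335 for Cdk15 and 0.965 for Cdk1. Its median was 0.851 over the 77 members and 0.602 over all promoters. The 10 members with H3K27me3 at the start in either condition had a median of 0.765 (range 0.234 to 1.25) and the other 67 a median of 0.877 (range 0.179 to 1.15), so the groups overlapped. Marks were called at the GENCODE start, and the RefSeq start lay within 1 kb of it for 72 of the 77 members. Among the 10 members it lay 2408 bp away for Cdk6 and 3579 bp away for Cenpj.

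Over the gene region, which runs from 1 kb before the TSS to the gene end, nearly all members held Smarca4 and H3K4me3. Smarca4 peaks lay in 84 members in control (95.5%, interval 88.9 to 98.2%) and in 87 after kd (98.9%, interval 93.8 to 99.8%), against 70.3% and 71.7% of all protein-coding genes. H3K4me3 islands lay in 86 and 87 members, against 63.4% and 68.1% of all genes. H3K27ac lay in 51 members in control and in 72 after kd, against 32.4% and 48.2%. H3K27me3 lay in 18 members in control (20.5%, interval 13.3 to 30%) and in 14 after kd (15.9%, interval 9.72 to 25%), against 42.4% and 35.6% of all genes. Ezh2 lay in 7 members in control (7.95%, interval 3.91 to 15.5%) and in 5 after kd (5.68%, interval 2.45 to 12.6%), against 12.6% and 15.4%. The Ezh2 interval in control took in the share of all genes.

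**Figure D1:**
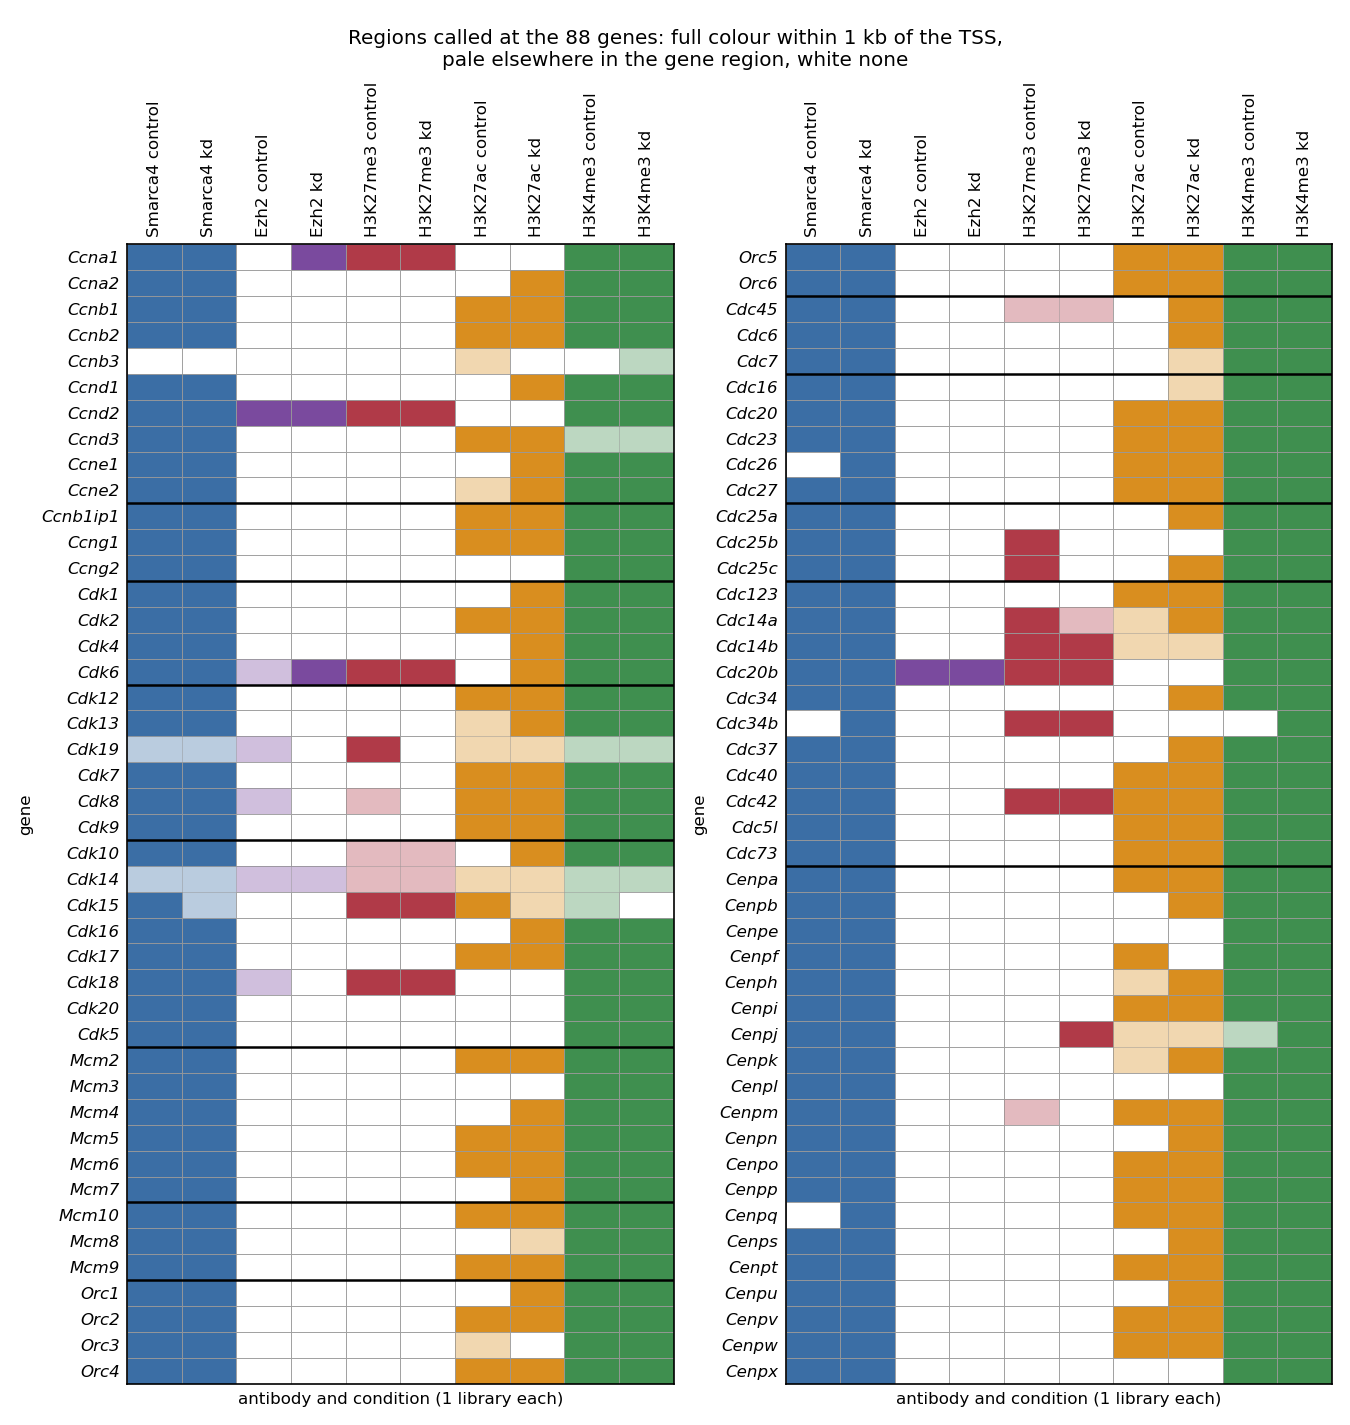
Calls for each of the 88 genes (rows, grouped by role) in the 10 libraries (columns). Full colour marks a region within 1 kb of the TSS, pale colour a region elsewhere in the gene region and white none. The Smarca4 and H3K4me3 columns are almost full, while Ezh2 lies at the TSS of 2 genes in control and 4 after kd.

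Within 1 kb of the TSS, Smarca4 was called at 82 members in control and 84 after kd, against 62.5% and 63.5% of all genes. H3K4me3 was called there at 81 and 83 members, against 56.6% and 60.4%. Many genes in the background have no mark of activity, so the 12410 genes with H3K4me3 at the TSS in control served as a closer comparison, a choice made with the data in view. Of the 81 members among them 79 had Smarca4 at the TSS in control (97.5%, interval 91.4 to 99.3%) and 81 after kd, against 94.4% and 96.8% of the 12410. The interval of the members in control took in the share of these genes.

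**Figure D2:**
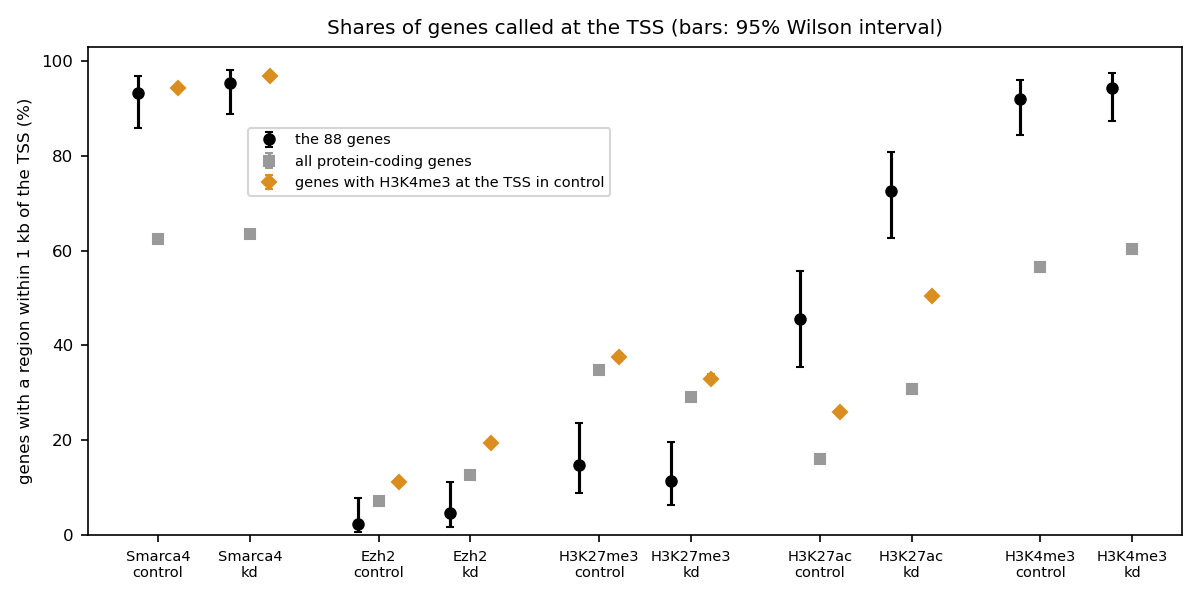
Percent of genes with a region within 1 kb of the TSS, by antibody and condition, for the 88 genes, for all 21938 protein-coding genes and for the genes with H3K4me3 at the TSS in control (not drawn for H3K4me3 itself). Bars are 95% Wilson intervals. For H3K27ac the members lie above both other groups and for H3K27me3 below both.

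The highest Smarca4 scores in control belonged to kinases, a cyclin and a centromere gene. Cdk17, another PCTAIRE kinase, had a peak at its TSS with a deposited score of 826 in control and 715 after kd. Cdk13, which phosphorylates RNA polymerase II, had 458 and 452. Ccnd1, which encodes cyclin D1, had 456 and 366. These 3 were high in both lists. Cenpv had 410 in control and 422 after kd. Cdk19, a kinase of the Mediator complex, had 499 and 397 at peaks away from its annotated start. Ccnd3, which encodes cyclin D3, held the most peaks, 32 in control and 30 after kd, and they covered 27435 and 18511 bp.

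Smarca4 was called in the gene region after kd alone at 3 members, against 3.85% of all genes, and in control alone at 0, against 2.45%. Cdc26, a subunit of the anaphase promoting complex, had no peak in control and 3 after kd, with a score of 117 at the TSS. Cenpq, a kinetochore protein, had no peak in control and 1 after kd with a score of 83. Cdc34b, a close relative of the ubiquitin-conjugating enzyme gene Cdc34, had none in control and 2 after kd, with a score of 37 at the TSS. Only uniquely mapped reads were kept, so calls at a gene with a close relative are uncertain, and this was not tested for Cdc34b. Ccnb3, which encodes cyclin B3, had no Smarca4 peak in either list. At the TSS the counts were 3 after kd alone, against 3.69% of all genes, and 1 in control alone, against 2.69%. The latter was Cdk15, with a score of 62.

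**Figure D3:**
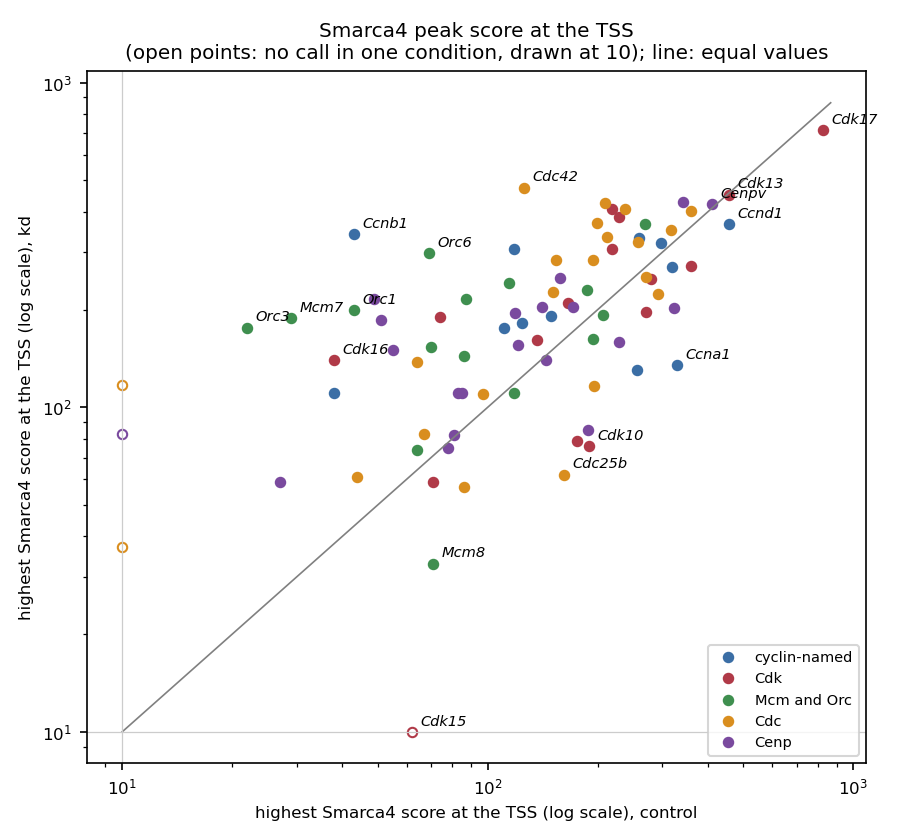
Highest Smarca4 score of a peak within 1 kb of the TSS in control (horizontal, log scale) and after kd (vertical, log scale), 1 point per gene, coloured by gene name. The line marks equal values, and open points have no call in 1 condition and are drawn at 10. Orc3, Mcm7 and Ccnb1 lie far above the line and Mcm8 and Cdc25b below it.

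At the 81 members with Smarca4 at the TSS in both lists, the peak was wider after kd at 52 and narrower at 29. Of the 13117 genes with such a pair 45% were wider and 54.8% narrower. The median log2 ratio of widths was 0.15 for members and -0.06 for all genes. Scores of 2 libraries share no common scale, so each was also ranked within its own list, as a percentile. The rank was higher after kd at 55 members and lower at 26, against 47.3% higher over all genes.

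Among the origin genes, Orc3 had a Smarca4 score of 22 in control and 176 after kd. Orc1 had 43 and 199, and Orc6 had 69 and 298. Mcm7 of the helicase had 29 and 188. These 4 genes ranked between 2.7 and 52.6 in control and between 84.6 and 94.7 after kd. Ccnb1, which encodes the cyclin B1 partner of Cdk1, had 43 and 342. Cenph, a kinetochore protein, had 49 and 215, and Cdk16 had 38 and 140. The opposite order was seen at Cdc25b, with 162 in control and 62 after kd, and at Mcm8, a helicase of DNA repair, with 71 and 33. Ccna1, the cyclin A of germ cells, had 330 and 135. These 10 genes were named after their values were seen.

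By role, the Smarca4 rank at the TSS was higher after kd at 5 of 6 Mcm2-7 genes, at 4 of 6 Orc genes and at 14 of the 19 Cenp genes called in both lists. It was higher at all 4 such genes of the anaphase promoting complex. It was higher at 5 of 9 cell cycle cyclins and at 2 of 4 cell cycle Cdks. It was higher at 2 of 5 transcription-linked Cdks such as Cdk7 and at 3 of 6 other Cdks. Beside these counts stands 47.3% of all genes, and groups this small do not set 1 role apart from another. Over whole gene regions, 256 Smarca4 peaks in control and 221 after kd lay in members. Of the control peaks 82 (32%) met no peak of the other list, against 41.3% of peaks in all gene regions. Of the kd peaks 53 (24%) met none, against 27.6%. Peaks found in 1 list alone had a median rank of 23.3 in control and 25.7 after kd, and those shared by both lists of 70.5 and 72.3.

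H3K4me3 lay at the TSS of nearly every member, mostly on narrower islands after kd. Of the 81 members called in both lists 58 had a narrower island after kd, 17 a wider one and 6 one of equal width. Of the 12239 genes with such a pair 60.8% were narrower and 28.5% wider. Median widths were 4400 and 3800 bp in the control and kd lists, and the median log2 ratio was -0.24 for members and -0.16 for all genes. Of the 6 Mcm2-7 genes 5 were narrower and 0 wider, and of the 19 Cenp genes called in both lists 16 were narrower. Of the 3 Mcm genes outside the helicase 1 was narrower and 2 wider. Of 10 Cdc genes outside the origin, anaphase promoting complex and Cdc25 groups 4 were narrower and 4 wider. Groups this small do not set 1 role apart from another. Many p-values of this mark were deposited as 0 and cannot be ranked, so widths are compared.

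The bases covered by H3K4me3 in the gene region differed most at Cdc16, a subunit of the anaphase promoting complex, with 13863 bp in control and 3200 bp after kd. Cdk19 had 13800 and 4000 bp. Cdc6, which loads the helicase, had 8400 and 2800 bp. All 3 had fewer covered bases after kd. Ccne2, which encodes cyclin E2, had 9050 and 3850 bp, and Cdk15 had 5000 bp in control and none after kd. The 5 largest differences in the other direction were at Cenpj (1600 and 5800 bp), Cdk7 (7139 and 9539 bp), Cenpp (5585 and 7385 bp), Cdc34 (4006 and 5806 bp) and Ccnb3 (0 and 1600 bp). Cover was smaller after kd at 60 members and larger at 21, with sums of 427216 bp in control and 342897 bp after kd. Cover was not counted over all genes. At the TSS, islands were narrower after kd at 60.8% of the 12239 genes called in both lists.

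In the gene region H3K4me3 was called in control alone at 1 member, Cdk15, and after kd alone at Ccnb3 and Cdc34b, against 0.825% and 5.49% of all genes. At the TSS it was called after kd alone at 2 members, against 4.59%, and in control alone at 0, against 0.779%. These 2 were Cenpj, with a -log10 p of 17.9, and Cdc34b, with 11.62. Ccnb3, Ccnd3, Cdk14, Cdk15 and Cdk19 had no H3K4me3 at the annotated TSS in either list. At 3 of them an island covered another annotated transcript start inside the gene. It lay 88419 bp into Ccnd3 (chr17:47593001-47599000 in control, 6000 bp wide, and 3200 bp wide after kd), 40115 bp into Cdk14 (2000 and 1600 bp) and 9744 bp into Cdk19 (5800 and 4000 bp). No annotated start of Ccnb3 or Cdk15 had an island in either list.

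H3K27ac was the mark whose calls differed at the most members. It was called at the TSS of 40 members in control and of 64 after kd, against 16% and 30.9% of all genes. It was called there after kd alone at 26 members, against 16.8%, and in control alone at 2, against 1.83%. Of the 81 members with H3K4me3 at the TSS in control 46.9% (interval 36.4 to 57.7%) had H3K27ac in control and 77.8% (67.6 to 85.5%) after kd, against 25.9% and 50.4% of the 12410 genes. After kd alone the share was 32.1% (22.9 to 42.9%) against 26.9%, so this interval took in the background. In the gene region 24 members were called after kd alone and 3 in control alone, against 18.9% and 3.06%. The kd list was the longer one, and with lists of equal length the difference of 21 members was 13.

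The 10 strongest H3K27ac islands found at a TSS after kd alone lay at genes of several roles. Orc1, the largest subunit of the origin recognition complex, had a -log10 p of 52.64 and the kinase gene Cdk13 had 31.24. Cdc25a had 27.44, and the G1 cyclins Ccnd1 and Ccne2 had 26.67 and 23.25. Cdk4, a kinase partner of the D cyclins, had 2 islands within 1 kb of the TSS, the stronger with 19.16. Cenpb, which binds centromere repeats, had 18.46. All these values lay well above the weakest islands of the list, which are near 5. Cdk16 had 17.8, and the helicase genes Mcm7 and Mcm4 had 17.74 and 16.78. The 2 members called in control alone were Cenpf, with 5.918, and Cdk15, with 5.335, close to the weakest islands. Lower values after kd alone were found at Ccna2 (cyclin A2, 10.53), Cdk1 (8.146) and Cdc45 (6.467), which were named after their values were seen.

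Of the 10 cell cycle cyclins 3 had H3K27ac at the TSS in control (Ccnb1, Ccnb2 and Ccnd3) and 7 after kd. Of the 4 cell cycle Cdks Cdk2 had it in control and all 4 after kd. It was called at 3 and 5 of the 6 Mcm2-7 genes, at 4 and 5 of the 6 Orc genes and at 0 and 2 of the 3 origin Cdc genes. It was called at 10 and 15 of the 20 Cenp genes. The anaphase promoting complex genes stood at 4 of 5 in both lists. Beside these counts stand 16% and 30.9% of all genes and 25.9% and 50.4% of the genes with H3K4me3 at the TSS in control, and groups this small do not set 1 role apart from another. Among the 3 histone marks, H3K4me3 was alone at the TSS of 34 members in control and 13 after kd, and H3K4me3 with H3K27ac and without H3K27me3 stood at 37 and 61. Over all genes the first state was found at 22% in control and 13.7% after kd and the second at 13.4% and 25.1%, so both shares differed in the same direction as in members. Of the 34 members 23 had the second state after kd and 11 did not. These 11 were Ccng2, Cdc7, Cdc16, Cdk5, Cdk20, Cenpe, Cenpl, Cenpx, Mcm3, Mcm8 and Orc3.

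**Figure D4:**
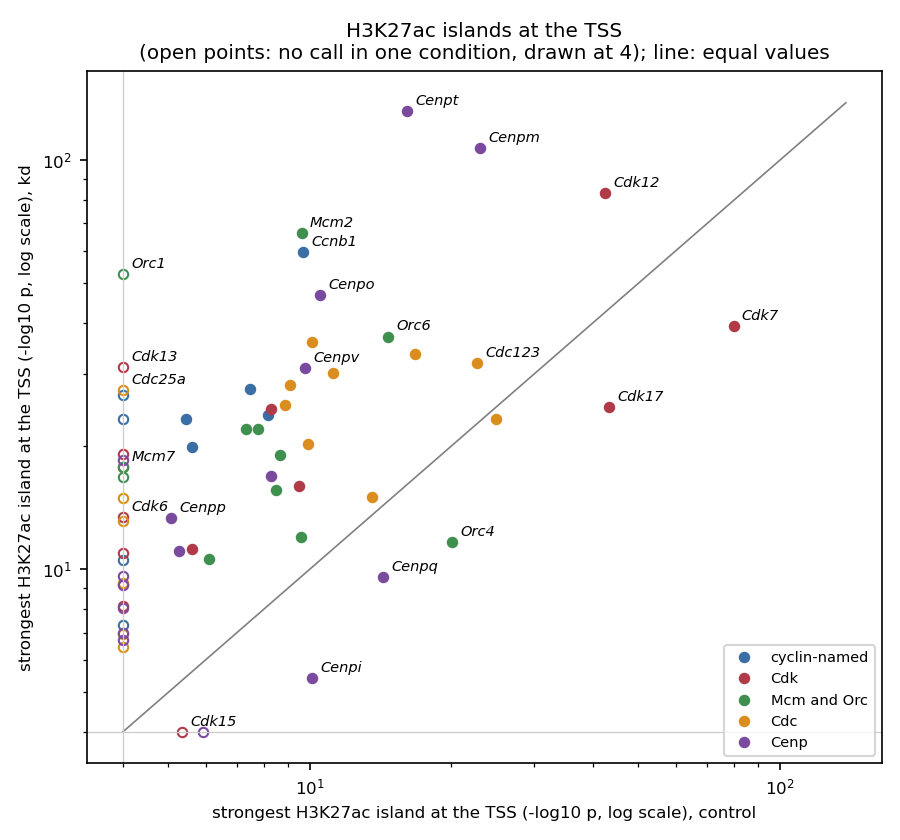
Strongest H3K27ac island within 1 kb of the TSS, as -log10 of the deposited p-value in control (horizontal, log scale) and after kd (vertical, log scale), 1 point per gene, coloured by gene name. The line marks equal values, and open points have no call in 1 condition and are drawn at 4. The 26 genes called after kd alone stand in the column at the left, with Orc1 at the top at 52.64.

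At the 38 members with H3K27ac at the TSS in both lists, the rank within the list was higher after kd at 32, against 80% of the 3099 genes with such a pair. Mcm2 had a -log10 p of 9.61 in control and 66.19 after kd. Ccnb1 had 9.681 and 59.57, and Cdc20 had 10.13 and 35.82. The rank was lower after kd at 6 members, among them Cdk7, the kinase of TFIIH, with 79.66 and 39.33. Cdk17 had 43.39 and 24.88. These 5 genes were named after their values were seen.

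Counted in bases over the gene region, H3K27ac cover was larger after kd at 49 members, smaller at 24 and equal at 15, with sums of 283995 bp in control and 340566 bp after kd. Cover was not counted over all genes, of which 32.4% had an island in control and 48.2% after kd. The 5 largest differences toward kd were at Ccnd3 (15150 and 26041 bp), Cdk19 (13600 and 23600 bp), Cdk6 (0 and 5400 bp), Cdc26 (3642 and 8242 bp) and Cenpv (2800 and 7000 bp). The 5 largest toward control were at Cdk12, a kinase of RNA polymerase II (13942 and 4742 bp), Cdk17 (22326 and 14000 bp), Cdc123 (11564 and 6164 bp), Cdc42 (7000 and 3400 bp) and Orc6 (5600 and 2000 bp). At Orc6 the island at the TSS ranked at 50.6 in control and 88.9 after kd although the cover was smaller. Of the H3K27ac islands in members 30.4% in control and 26.3% after kd were at least 50% repeat-masked, against 57.4% and 52.2% in all gene regions.

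H3K27me3 was called at the TSS of 13 members in control and 10 after kd, against 34.9% and 29.2% of all genes. Of the 81 members with H3K4me3 at the TSS in control 12.3% (interval 6.85 to 21.3%) had it in control and 8.64% (4.25 to 16.8%) after kd, against 37.5% and 33% of the 12410 genes. None of the 6 Mcm2-7, 6 Orc, 3 origin Cdc or 5 anaphase promoting complex genes had it at the TSS in either list. Of the 20 Cenp genes Cenpj had it, after kd. In the gene region it was called in control alone at 5 members and after kd alone at 1, against 9.74% and 2.95%. At the TSS these counts were 4 and 1, against 8.15% and 2.39%.

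H3K27me3 lay at the TSS of 9 members in both lists. Ccnd2, which encodes cyclin D2, lay in an island of 55800 bp in control (chr6:127114001-127169800) whose p was deposited as 0. After kd, islands of 17200 and 27000 bp stood there, and the cover of the gene region was 28032 and 25832 bp in the 2 lists. Cdc20b, a relative of Cdc20, had 15290 and 15690 bp of cover. Ccna1 had 8101 and 10301 bp, with a -log10 p of 103.9 and 104.8. These 3 genes had H3K4me3 and no H3K27ac at the TSS in both lists.

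Cdk6, the other kinase partner of the D cyclins, had an H3K27me3 island of 4000 bp in control and of 15200 bp after kd, with a -log10 p of 49.59 and 67.81. It had H3K4me3 at the TSS in both lists and H3K27ac there after kd alone. Cdc42 had all 3 marks there in both lists, with 1120 and 520 bp of H3K27me3 in its region. Cdk18 had 10484 and 4684 bp, and Cdk15 had 23895 bp in 5 islands in control and 2695 bp in 1 island after kd. The phosphatase gene Cdc14b had 5400 and 5490 bp. Cdc34b had 2252 bp in both lists, with a -log10 p of 65.71 and 11.79.

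The 4 members with H3K27me3 at the TSS in control alone were Cdc14a, Cdc25b, Cdc25c and Cdk19. Cdc25b lay under an island of 5600 bp (-log10 p of 31.54, chr2:131182601-131188200), which also covered the start of its neighbour Spef1. Cdc25c, a phosphatase that activates Cdk1, had an island of 2800 bp (22.42), of which 333 bp lay in its region. Cdk19 had one of 3000 bp (17.54). The island at the TSS of Cdc14a was 2600 bp wide and the weakest of the 4, with 10.42. H3K27ac was called at the TSS of Cdc14a and Cdc25c after kd and not in control. Cenpj had an island of 2800 bp after kd alone (11.8), which also covered the start of Parp4.

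Away from the TSS, Cdk8, a paralog of Cdk19 and likewise a kinase of Mediator, had a 600 bp island in control alone. Cenpm, a kinetochore protein, had an island in control alone of which 822 bp lay in its region. The islands in the regions of Cdc45 and Cdk10 covered the starts of their neighbours Cldn5 and Spata2l. Cdk14 had 9000 bp in control and 14600 bp after kd, most of it around the start inside the gene that carried H3K4me3.

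**Figure D5:**
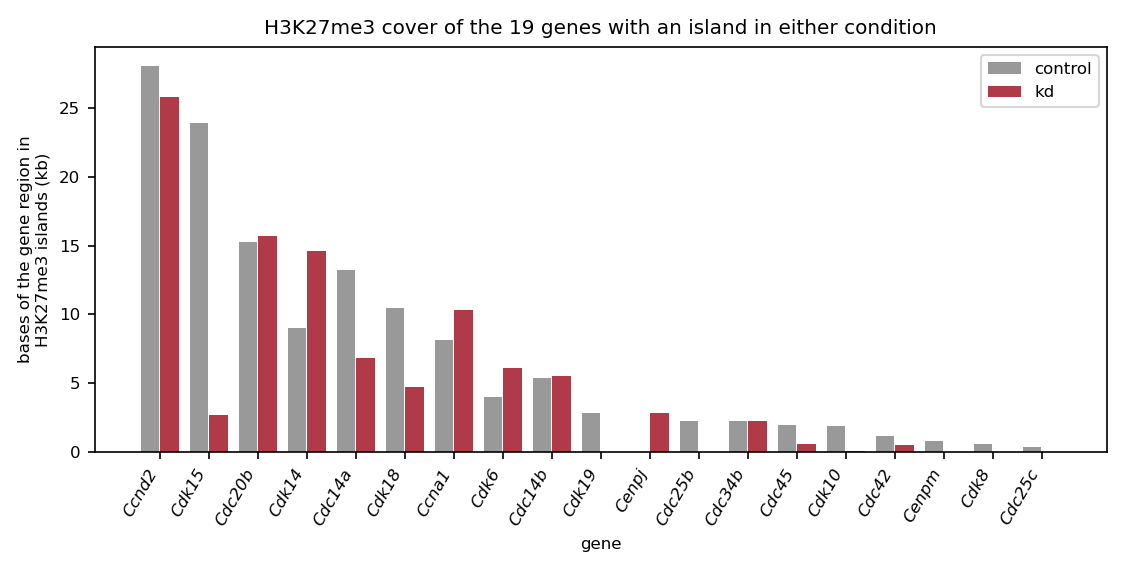
Bases of the gene region in H3K27me3 islands (kb) for the 19 genes with an island in either list, in control and after kd, with 1 library each. Ccnd2 has the most covered bases in both conditions, Cdk15 differs most between them, and Cdk14, Cenpj, Ccna1, Cdk6, Cdc20b and Cdc14b have more after kd.

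Ezh2 was called at the TSS of 2 members in control and 4 after kd, against 7.13% and 12.6% of all genes. The call was after kd alone at 2, against 5.78%, and in control alone at 0, against 0.283%. Ccnd2 had 4 peaks in control, with scores of 281, 63, 33 and 132, and 2 after kd, with scores of 241 and 253, the latter 4285 bp wide over the TSS. Cdc20b had a peak of 323 bp with a score of 171 in control and one of 763 bp with a score of 333 after kd. The widest peak at the TSS was wider after kd at both genes and at 97.8% of the 1502 genes with such a pair. Ranked within its list, the strongest peak was lower after kd at both genes and higher at 1004 of the 1502. Ccna1 had none in control and a peak of 906 bp with a score of 197 after kd. Cdk6 had no peak at the TSS in control and 2 after kd, with scores of 134 and 44. All 4 genes had H3K27me3 at the TSS in both lists.

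In the gene region Ezh2 was called in control alone at 3 members, Cdk8, Cdk18 and Cdk19, and after kd alone at Ccna1, against 3.19% and 5.96% of all genes. The peaks of Cdk18 (score 122) and Cdk19 (score 63) were 91.4% and 84.3% repeat-masked, and that of Cdk8 (score 38) was 3.17% masked. The direction of the Ezh2 difference thus turned with the window, from -2 members over the gene region to 2 at the TSS, and it was 0 without repeat-masked regions. The part of repeats in these calls was not tested.

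A list of 59 other genes of the same pathways, among them the E2f factors, the Rb family, the Gins, Rfc and Rpa genes and kinetochore genes such as Ndc80, was counted in the same way. At the TSS, Smarca4 was called at 56 in control and 57 after kd, and H3K4me3 at 58 and 59. H3K27ac was called at 20 and 44, after kd alone at 25 and in control alone at 1. H3K27me3 was called at 9 and 7, and Ezh2 at 1 and 3. The shares of all genes at the TSS were 62.5% and 63.5% for Smarca4, 56.6% and 60.4% for H3K4me3, 34.9% and 29.2% for H3K27me3 and 7.13% and 12.6% for Ezh2. For H3K27ac they were 16% and 30.9%, with 16.8% after kd alone and 1.83% in control alone.

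For 24 of the 88 members (27.3%) another protein-coding gene starts on the opposite strand within 1 kb, against 10.9% of all genes. Orc3 and Rars2 start 13 bp apart, Orc1 and Prpf38a 87 bp, Cdc26 and Prpf4 155 bp, and Mcm7 and Ap4m1 420 bp. A region over such a pair of starts cannot be given to 1 of the genes.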

How the data were processed

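Of 14 ChIP-seq samples, the 10 immunoprecipitated libraries (5 antibodies, control and kd, 1 each) were analysed, and the 4 inputs were not used here. The methods describe trimming, alignment to mm10 and a filter for uniquely mapped reads. The submitters' processing notes name Trim Galore, Bowtie2, SAMtools 1.9, MACS2 and SICER. Active Motif prepared the Smarca4 and H3K27me3 libraries and a core facility sequenced the others. The authors called Smarca4 and Ezh2 peaks with MACS2, whose deposited lists give a score per peak. They called histone islands with SICER, whose deposited lists give a p-value per island, some of them 0. Peak names mention IgG, whereas the methods name input as the control for MACS2, and which was used could not be settled. The lists hold no read counts.

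Regions were overlapped by at least 1 bp with gene regions of GENCODE M21, where the authors used a later release. Shares carry 95% Wilson intervals (scipy 1.17.1, numpy 2.4.6), and figures used matplotlib 3.10.9. There was no test. The overlap step was tested on simulated data, in which 798 of 800 genes were called in the class they were given. Genes were named for a Smarca4, Ezh2 or H3K27me3 call in the gene region in 1 condition alone, for Ezh2 or H3K27me3 at the TSS, for lacking H3K4me3 there, for an H3K4me3 or H3K27ac call there that differed (up to 10 per direction), for the 5 largest differences in cover in each direction, and for the 5 highest Smarca4 scores in control. All other genes were named after their values were seen. The members and lists were chosen with earlier results of these data known. Alternatives were a TSS window, stricter thresholds (a score of 50, a -log10 p of 10 for H3K27ac and 20 for other marks), lists of equal length, regions under 50% repeat-masked, an overlap of 200 bp and, added after the data were seen, any annotated transcript start.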

Additional observations from a re-analysis of the deposited data

How the results depend on the processing

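The differences over the gene region (members called after kd alone minus members called in control alone) were 3 for Smarca4, -2 for Ezh2, -4 for H3K27me3, 21 for H3K27ac and 1 for H3K4me3. With stricter thresholds, 88.6% of members had Smarca4 in control and the difference was 6, the Ezh2 difference was -1, H3K27ac lay in 29.5% in control and 67% after kd with a difference of 33, and the H3K4me3 difference was 0. With these thresholds H3K27ac lay in 22.3% of all genes in control and 37.1% after kd. Within 1 kb of the TSS, Ezh2 lay in 2.27% in control and its difference reversed to 2, H3K27ac lay in 45.5% in control, and H3K4me3 lay in 92% in control with a difference of 2. With lists of equal length the differences were -1 for Ezh2, 13 for H3K27ac and -1 for H3K4me3, the last reversed. Over all genes these lists gave H3K27ac after kd alone at 14.2% and in control alone at 4.96%. Without repeat-masked regions they were 0 for Ezh2 and 2 for H3K4me3. With any annotated transcript start, an alternative chosen after seeing the data, Ezh2 lay in 3.41% in control with a reversed difference of 2, the H3K27me3 difference was -2, and H3K27ac lay in 45.5% in control. None of the other 69 recomputed values changed direction. The causes were not tested. No paired analysis was possible because each antibody and condition had 1 library and no test was made, and for the same reason no replicate could be left out. Read counts are not in the lists, so a call near a list's threshold may be missing from the other list at a similar signal.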
